A study of Mus musculus with 107 samples.

Results

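Octylhomovanillamide (OHV) and indomethacin (IND) were compared as pretreatments of mouse ear skin before sulfur mustard. OHV was given 15 min before mustard to 5 right ears, of animals 27, 28, 29, 30 and 33, and IND 15 min before mustard to 6 right ears, of animals 16, 17, 18, 19, 21 and 22. These 11 ears were taken by their treatment labels among 64 ears measured on Affymetrix mouse array A and 43 on its companion array B. Array B carries other probe sets, apart from controls and 100 probe sets shared with array A. Each of the 11 was measured once on each array, and the arrays were tested apart.

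OHV was labelled 0.6 mg, and the protocol gives 0.585 mg (1.995 µmol) in 30 µL of ethanol. IND was 1.34 mg (3.74 µmol) in 20 µL of ethanol. Mustard, 0.08 mg (0.5 µmol) in 5 µL of methylene chloride, was then put on the same ear, and an 8 mm biopsy at 24 h gave 10 µg of RNA for the arrays. Beside these stood 5 right ears with mustard and no drug or ethanol, and 21 left ears with 5 µL of methylene chloride alone, of which 5 belonged to the OHV animals and 4 to the IND animals (17, 18, 19 and 22). A further 6 right ears had dimercaprol, a dithiol chelator, at 6.25 mg in 10 µL, 15 min before the same mustard dose, and they enter the filter and the fit but are not described. Without mustard, on array A only and in other animals, 5 ears had OHV, 4 had IND, 3 had ethanol, 4 had the same dose of dimercaprol, and 5 naive ears came from 3 animals. The ears with a drug and no mustard had no methylene chloride. Strain, age and sex are not given in the sources used here. The drugs differed in dose and volume and were given to different animals, so that each difference below is one between the treatments as given, and drug and set of animals cannot be told apart in the right ears alone.

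Sulfur mustard alkylates DNA and proteins and injures the keratinocytes of the epidermis. Injured epidermis switches to a wound programme of stress keratins, cornified envelope proteins and alarmins, with inflammation beneath it. Indomethacin blocks the cyclooxygenases, which turn arachidonic acid into prostaglandins, and octylhomovanillamide is an analog of capsaicin, the vanilloid that opens the channel Trpv1 on sensory nerves. The comparison asks how skin given mustard differs after these pretreatments.

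Values are scaled signal, the authors' intensity brought to a trimmed mean of 500 on every array. Differences are OHV minus IND on the log2(signal + 16) scale, which understates the change of dim probe sets, with the standard error (SE) of a limma fit and a Benjamini-Hochberg adjusted p over all kept probe sets of that array. A gene is called, and said to be higher or lower, at an adjusted p under 0.05. The skin keratins Krt5 and Krt10 averaged 14106 and 23415 in OHV ears and 13029.8 and 25198 in IND ears, and the muscle actin Acta1 averaged 12333 in OHV ears and 11733 in IND ears, so that both epidermis and muscle were in the biopsies. Array A brightness before scaling was 121 to 213 in OHV ears and 128 to 211 in IND ears (exact permutation p = 0.34). Gapdh signal at the 3' end over that at the 5' end, a sign of RNA quality, averaged in log2 -0.10 ± 0.129 in OHV ears and 0.00185 ± 0.0926 in IND ears (SD, n = 5 and 6, exact permutation p = 0.177). Of the ears with mustard and no drug, ears 5 and 37 stood apart: their brightness was 86.3 and 66.9 and their log2 Gapdh ratio 0.634 and 0.778, while in ears 1, 3 and 36 brightness was 117, 131 and 137 and the ratio 0.0295, 0.0793 and -0.0453. The mustard score, the counts of genes shared with the mustard change and the tests against mustard alone are given with and without these 2 ears.

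OHV ears carried less of the mustard response than IND ears. A score was formed from the 337 probe sets that mustard alone raised and the 520 that it lowered, at least 2-fold against methylene chloride ears. Drug-treated ears did not enter the means compared in that choice. They did enter its filter and the estimate of spread, since the fit held all groups of the mustard series. The score, in log2 units, averages 0 in methylene chloride ears. It was 0.71 in OHV ear 27, 0.34 in ear 28, 0.98 in ear 29, 0.48 in ear 30 and 0.30 in ear 33. It was 1.68 in IND ear 16, 1.12 in ear 17, 0.75 in ear 18, 1.18 in ear 19, 0.89 in ear 21 and 1.51 in ear 22. The groups overlapped, since OHV ear 29 lay above IND ears 18 and 21, and the other 4 OHV ears lay below all IND ears.

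The mean score was 0.56 ± 0.28 in OHV ears and 1.19 ± 0.36 in IND ears (SD, n = 5 and 6), a difference of -0.62 (2-sided exact permutation p = 0.0173 over 462 splits, where the smallest possible p is 0.00216). On array B, with mostly other probe sets and the same RNA, a score was formed from 411 raised and 679 lowered probe sets. It was 0.37 ± 0.21 in OHV ears and 0.81 ± 0.26 in IND ears, a difference of -0.45 (exact permutation p = 0.0195). The groups overlapped there too. OHV ear 29 at 0.68 lay above IND ears 18 and 21 at 0.43 and 0.64, and OHV ear 27 at 0.47 lay above IND ear 18. With any 1 of the 11 ears left out, the difference lay between -0.73 and -0.52 on array A and between -0.52 and -0.38 on array B. With the signature taken without mustard ears 5 and 37 it was -0.68 on array A and -0.56 on array B (exact permutation p = 0.0173 and 0.0152).

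**Figure D1:**
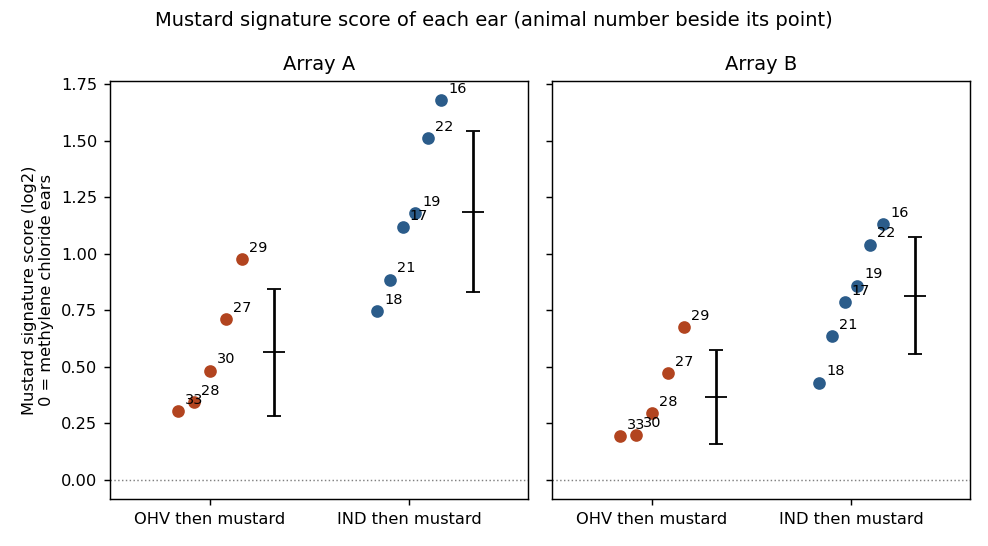
Mustard signature score (log2 units, 0 is the mean of methylene chloride ears) of each ear given OHV then mustard, left, and IND then mustard, right, on arrays A and B. Points are ears, and bars give the mean and SD (n = 5 and 6). On array A, OHV ear 29 at 0.98 lies within the IND ears and the other OHV ears lie below them. On array B, OHV ears 27 and 29 lie within the IND range.

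Among single probe sets of array A, 195 were higher in OHV ears (1.27% of the 15400 tested) and 144 lower (0.935%). With quantile normalization the split was 119 higher and 135 lower. Taking 1 probe set per gene, 122 of 9272 genes were higher (1.32%) and 111 lower (1.2%). All OHV ears lay above all IND ears for 110 genes (1.19%) and below them for 68 (0.733%), and 32 higher and 28 lower genes met both criteria.

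The number of calls rested on single ears. It was 261 without OHV ear 27, 1 without ear 28, 665 without ear 29, 135 without ear 30 and 1 without ear 33. It was 4 without IND ear 16, 221 without ear 17, 997 without ear 18, 110 without ear 19, 742 without ear 21 and 17 without ear 22. With the 11 ears fitted without the other groups it was 2, probe sets of Pole and Ifi47 (limma adjusted p = 0.0289 each). Gbp2 was not called in that fit (limma adjusted p = 0.126). In the reported fit 2864 probe sets had an unadjusted p under 0.05. The 66 called genes of array A that the naming rule picks kept their sign in all of these fits. They were picked by their calls in the same ears, so that a kept sign was largely fixed by that choice. Gbp2 alone stayed called without each ear in turn. Igtp and Ube2e2 stayed called in 9 of the 11 leave-outs, Pole, Ehf, Meox2 and Ifi47 in 8, and the others in 2 to 7.

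All OHV animals and IND animals 17, 18, 19 and 22 also had a left ear with methylene chloride alone, so that right and left ears could be compared within an animal. When each animal was fitted as a block, over the 17 animals of the mustard series with both ears, of which these 9 carry the comparison, limma called 0 probe sets on array A (smallest adjusted p 0.298), with 1422 at an unadjusted p under 0.05. Without a block and without IND ears 16 and 21, which have no left ear, 21 were called. The mustard score, taken as right minus left ear, differed by -0.60 between OHV and IND animals (exact permutation p = 0.0317 over 126 splits, where the smallest possible p is 0.00794).

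The 66 called genes of array A that the naming rule picks all kept their sign with the block. The blocked fit reuses right ears by which these genes were picked, so that the kept sign is not independent support. Their blocked difference was at a median of 81.6% of the unblocked one, and 18 of them were smaller by more than 1.5 times. The interferon-induced Gbp2 was -1.45 and the keratinocyte genes Krt17, Sprr2f and Gjb2 were -1.02, -2.08 and -1.22 with the block (limma adjusted p = 0.298, 0.406, 0.52 and 0.456), each within 1.5 times of the value given below. Of the called genes described below, 17 were smaller by more than 1.5 times. Those higher in OHV ears without the block included Dbp at 0.60, Mcm6 at 0.13, Timeless at 0.22 and Pole at 1.15. Sostdc1 at 0.66, Cysltr1 at 0.55, Meox2 at 0.62 and Pla2g4a at 0.40 were also higher without it. Those lower without it were Zfp36 at -0.26, Nfkbia at -0.22, Mt1 at -0.38, Mt2 at -0.29, Slfn2 at -0.36, Rsad2 at -0.59, Rptn at -1.07, Icam1 at -0.62 and Krt6a at -0.82. Adjusted p of these 17 genes lay between 0.519 and 0.897 in the blocked fit.

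Most called genes lay opposite to the mustard change. Of the 122 genes higher in OHV ears, 114 (93.4%) were lower in mustard-alone than in methylene chloride ears and 0 were higher, and the 114 are 4.99% of the 2286 genes that mustard lowered. Of the 111 genes lower in OHV ears, 100 (90.1%) were higher with mustard alone and 0 were lower, and the 100 are 5.32% of the 1878 genes that mustard raised. Over all 9272 genes, mustard raised 20.25% and lowered 24.65%. The groups compared share no ears, but both comparisons come from the same fit. They share its filter and its estimate of spread, so that the calls are not independent. Without mustard ears 5 and 37 the shared counts were 104 of 122 and 94 of 111. The 19 genes called between the drugs and not for mustard include the interferon-induced Ifi47, Iigp1 and Irgm1, the metallothionein Mt1, Myc, Nfkbia and Serpinb2, all lower in OHV ears, and Gstt2 and Timeless, both higher.

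**Figure D2:**
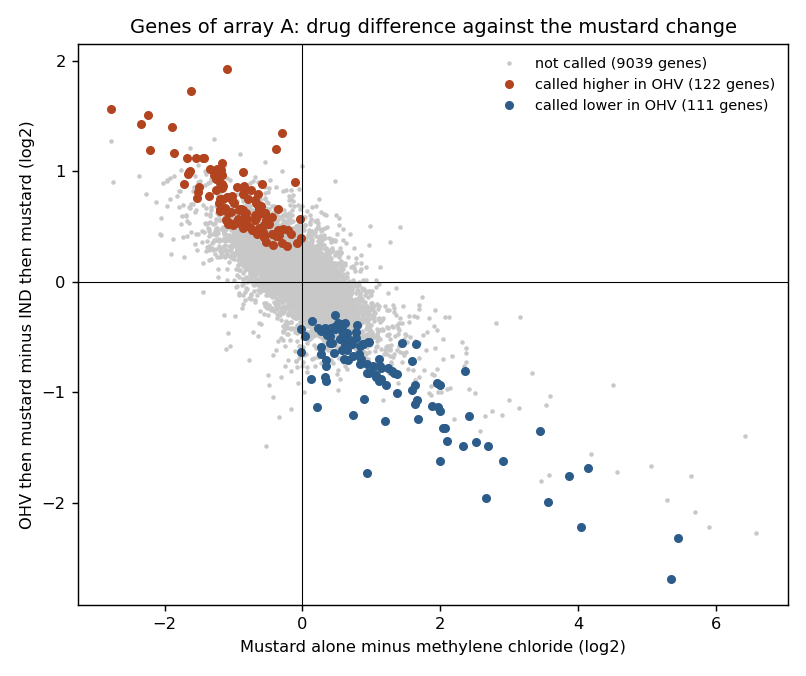
Each point is 1 gene of array A, with the mustard-alone minus methylene chloride difference on the horizontal axis and the OHV minus IND difference, both with mustard, on the vertical axis, both in log2. The 122 genes higher in OHV ears lie mostly where mustard lowered genes, and the 111 lower genes mostly where it raised them.

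Of the named genes, Gbp2 alone stayed called in all 11 leave-outs, but it was not called with only the 11 ears fitted. Its mean signal for the filter includes the IND ears, where it was high, and it was also called with no filter. It was among several interferon-induced genes that were lower in OHV ears. They include guanosine triphosphatases of the Gbp and Irg families, which interferon-gamma turns on and which act against microbes held in vacuoles. Promoters of 4 members that differed together are printed from the RefSeq table of GRCm38.p6, as 300 bases read along the gene from 250 before its start to 50 after. Capitals mark motifs of interferon signalling searched on both strands, GAS (TTCNNNGAA) and the core of ISRE (GAAA, any 2 bases, then GAAA). GAS letters are in 8.33% and ISRE core letters in 3.45% of the 32544 promoters of the table. Gbp2 (chr3:142620413-142620712, plus strand) holds 1 ISRE core, Igtp (chr11:58199306-58199605, plus strand) holds 1 of each motif, Irgm1 (chr11:48871371-48871670, minus strand) holds 2 overlapping ISRE cores and Rsad2 (chr12:26456403-26456702, minus strand) holds 1 ISRE core. These letters are not in the windows of Ifi47 and Slfn2, and the promoter of Iigp1, described below, was not searched. A match describes letters, and no binding was measured.
Gbp2: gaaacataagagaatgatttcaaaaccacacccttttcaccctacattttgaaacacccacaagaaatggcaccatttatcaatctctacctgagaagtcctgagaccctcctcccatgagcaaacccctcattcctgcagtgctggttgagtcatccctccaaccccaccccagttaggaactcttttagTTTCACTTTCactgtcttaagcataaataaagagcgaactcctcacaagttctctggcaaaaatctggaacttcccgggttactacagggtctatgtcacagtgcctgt
Igtp: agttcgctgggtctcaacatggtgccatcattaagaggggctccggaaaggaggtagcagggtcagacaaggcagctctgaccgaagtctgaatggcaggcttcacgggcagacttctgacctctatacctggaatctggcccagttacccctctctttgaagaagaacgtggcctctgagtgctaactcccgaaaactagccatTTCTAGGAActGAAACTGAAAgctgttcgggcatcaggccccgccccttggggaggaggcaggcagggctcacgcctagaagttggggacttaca
Irgm1: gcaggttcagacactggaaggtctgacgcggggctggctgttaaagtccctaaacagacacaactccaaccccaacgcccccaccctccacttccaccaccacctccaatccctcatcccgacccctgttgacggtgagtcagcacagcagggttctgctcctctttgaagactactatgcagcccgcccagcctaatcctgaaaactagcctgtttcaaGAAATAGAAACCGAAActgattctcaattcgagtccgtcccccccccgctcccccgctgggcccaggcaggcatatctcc
Rsad2: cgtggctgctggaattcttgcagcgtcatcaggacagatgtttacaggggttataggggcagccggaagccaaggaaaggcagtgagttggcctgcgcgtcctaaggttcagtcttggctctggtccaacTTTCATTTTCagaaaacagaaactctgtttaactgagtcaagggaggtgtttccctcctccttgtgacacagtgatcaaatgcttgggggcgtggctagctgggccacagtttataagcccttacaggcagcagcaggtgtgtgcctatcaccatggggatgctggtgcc

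Gbp2, a guanylate-binding protein, had scaled signals of 145, 66.2, 136, 56.0 and 52.9 in OHV ears 27, 28, 29, 30 and 33. In IND ears its lowest, median and highest signals were 184, 296 and 587, so that every OHV ear lay below every IND ear. OHV ears were 3.32-fold lower (difference -1.73 ± 0.24, limma adjusted p = 7.11e-05). Mustard-alone ears averaged 149.9 ± 25.1 (SD, n = 5) and methylene chloride ears 71.6 ± 19.7 (SD, n = 21). Against mustard alone, whose ears both comparisons share, Gbp2 differed by -0.72 in OHV ears (limma adjusted p = 0.0383) and by 1.02 in IND ears (limma adjusted p = 0.0331). Without mustard ears 5 and 37 these differences were -0.63 and 1.10 (limma adjusted p = 0.251 and 0.627).

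Igtp, an immunity-related guanosine triphosphatase, measured 244, 119, 231, 175 and 144 in OHV ears, against 249, 360.3 and 1106 as the lowest, median and highest IND values (difference -1.21 ± 0.23, limma adjusted p = 0.0132). The groups did not overlap. Ifi47, of the same family, measured 102, 142, 101, 95.7 and 87.7 in OHV ears, against 218, 236 and 309 in IND ears in the same order (difference -1.13 ± 0.23, limma adjusted p = 0.0169). It did not overlap either, and its OHV mean of 106 ± 21.0 lay beside 126 ± 49.6 with mustard alone and 106 ± 36.6 with methylene chloride, against 249.6 ± 37.6 in IND ears (SD). Irgm1, a member that regulates the others, averaged 209 ± 34.8 in OHV ears and 341 ± 88.9 in IND ears (difference -0.65, limma adjusted p = 0.0419), without overlap.

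Iigp1, another of this family, averaged 339 ± 92.7 in OHV ears and 636 ± 199 in IND ears (difference -0.86, limma adjusted p = 0.0194), with OHV ears 27 and 29 inside the IND range. Rsad2, the antiviral protein viperin, measured 199.6, 191, 212, 216 and 202 in OHV ears, against 221, 386 and 864 as the lowest, median and highest IND values (difference -0.93, limma adjusted p = 0.0365). OHV ears were closely grouped and lay below all IND ears. Slfn2, a Schlafen family gene, averaged 269 ± 47.0 in OHV ears and 502 ± 125 in IND ears (difference -0.84, limma adjusted p = 0.019), also without overlap.

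Of the 16 measured genes of the interferon-stimulated list, 4 were lower (Gbp2, Igtp, Iigp1 and Rsad2) and 0 higher, where 1.2% of all genes were lower. The list's median was -0.49, against 0.03 over all genes, and 15 of its genes lay below 0. By ear, relative to methylene chloride ears, its median ran -0.15 to 0.26 in OHV ears and 0.25 to 0.85 in IND ears. Without mustard the median between the same drugs was -0.05, and between the left ears 0.05.

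**Figure D3:**
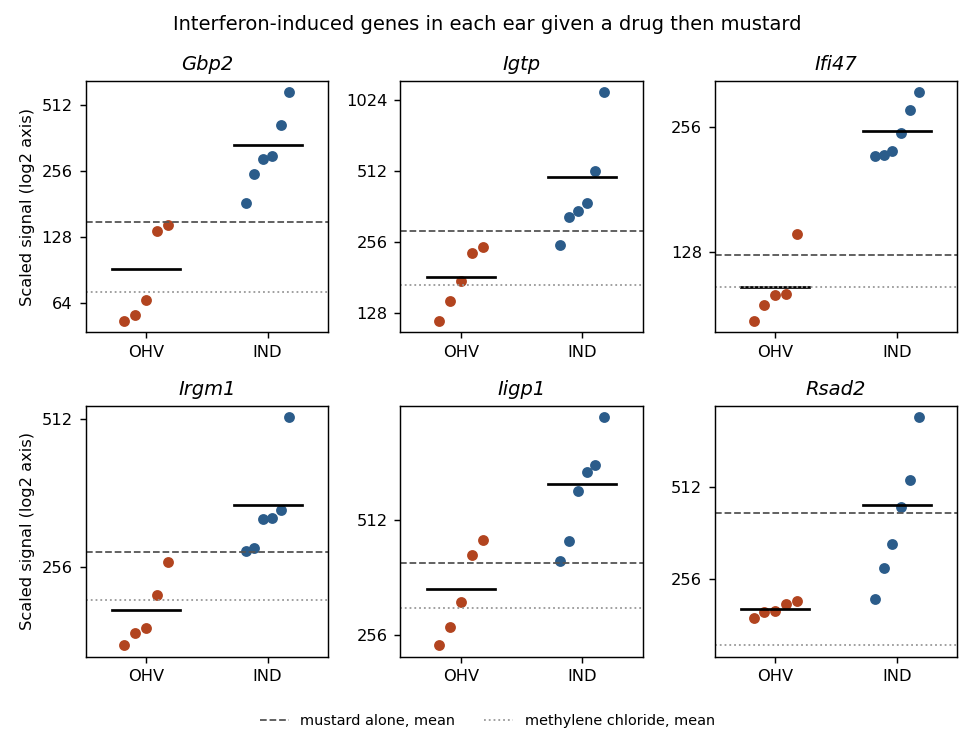
Scaled signal (log2 axis) of 6 interferon-induced genes in each ear given OHV then mustard, left in each panel, and IND then mustard, right. Points are ears, black bars group means, and the dashed and dotted lines the means of mustard-alone and methylene chloride ears. All OHV ears lie below all IND ears for Gbp2, Igtp, Ifi47, Irgm1 and Rsad2, while the groups overlap for Iigp1.

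Genes of the keratinocyte wound programme were lower in OHV ears in part. Of 24 measured genes of that list, 7 were lower (Krt6a, Krt17, Sprr1a, Sprr2f, S100a9, Serpinb2 and Stfa3) and 0 higher, where 1.2% of all genes were lower, all 24 differences were below 0, and their median was -1.29. Relative to methylene chloride ears, which these comparisons share, the median was 2.00 in OHV ears, 3.56 in IND ears and 3.66 with mustard alone. By ear it ran 1.26 to 3.11 in OHV ears and 2.48 to 4.02 in IND ears. Without mustard the drugs differed by a median of -0.29, and the left ears by -0.06. The Sprr2, Stfa, Saa, metallothionein and keratin 6 genes have near-identical relatives, and how far relatives add to a probe set's signal was not tested.

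Krt17, a keratin that injured epidermis makes, measured 1835, 1473, 3451, 1864 and 1881 in OHV ears, against 2512, 4884 and 6839.7 as the lowest, median and highest IND values (difference -1.17 ± 0.24, limma adjusted p = 0.0169). OHV ear 29 lay inside the IND range and the other 4 below it. Krt6a, another keratin of wound edges, averaged 6741 ± 4228 in OHV ears and 14799.7 ± 3352 in IND ears (SD, n = 5 and 6, difference -1.35, limma adjusted p = 0.0475). Krt16 and Krt6b differed by -1.76 and -1.40 and were not called (limma adjusted p = 0.0755 and 0.307), with 95% intervals of -2.90 to -0.62 and -2.89 to 0.09.

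Sprr2f, a small proline-rich protein of the cornified envelope, measured 819, 232, 2919, 527 and 144 in OHV ears, against 864, 4844 and 6274 as the lowest, median and highest IND values (difference -2.69 ± 0.60, limma adjusted p = 0.0194). OHV ear 29 lay inside the IND range, and methylene chloride ears averaged 65.4. Stfa3, a stefin that inhibits cysteine proteases, averaged 1190.3 ± 657 in OHV ears and 3827 ± 1295 in IND ears (difference -1.76, limma adjusted p = 0.0194), again with OHV ear 29 inside the IND range. Sprr1a averaged 8650.1 ± 4749 in OHV ears and 18049 ± 4638 in IND ears (difference -1.22, limma adjusted p = 0.0433).

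The alarmin S100a9, which keratinocytes and neutrophils both make, measured 3772, 649, 8809, 2107 and 931 in OHV ears, against 4288, 11765 and 18720.1 as the lowest, median and highest IND values (difference -2.32 ± 0.64, limma adjusted p = 0.0451). OHV ear 29 was the highest of its group and lay inside the IND range. Its partner S100a8 differed by -2.08 and was not called (limma adjusted p = 0.0674). Of 12 measured neutrophil markers S100a9 alone was called (1.2% of all genes were lower), the list's median was -0.53, and Lcn2, which epidermis also makes, differed by -1.04 (limma adjusted p = 0.12). In whole biopsies, fewer cells of a type and less RNA per cell cannot be told apart.

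The gap junction genes Gjb2 and Gjb6 and the envelope genes Rptn and Tgm3 were lower in OHV ears. Gjb2 and Gjb6 were 2 of 16 measured desmosome and junction genes (1.2% of all genes were lower), whose median was -0.12. Gjb2, which encodes connexin 26, measured 2003, 1162, 3924, 1713 and 1139 in OHV ears, against 2924, 4701 and 6939 as the lowest, median and highest IND values (difference -1.44 ± 0.29, limma adjusted p = 0.0163). Gjb6, which encodes connexin 30, averaged 596 ± 305 in OHV ears and 1559 ± 573 in IND ears (difference -1.45, limma adjusted p = 0.0309). Rptn, the envelope protein repetin, measured 571, 437, 1062, 839.5 and 184 in OHV ears, against 900.0, 1944 and 2294 in IND ears in the same order (difference -1.62 ± 0.37, limma adjusted p = 0.0212). Tgm3, a transglutaminase that cross-links the envelope, differed by -1.06 (limma adjusted p = 0.0222). The other kept probe set of Rptn differed by 0.10 and was not called. In each of these 4 genes the groups overlapped. Rptn and Tgm3 were the called genes of 25 measured epidermal differentiation genes (against 1.2% of all genes), whose median was -0.19. Flg, which encodes filaggrin, averaged 2206 ± 199 in OHV ears and 2120.2 ± 628 in IND ears, with an interval of -0.27 to 0.48 for the difference (limma adjusted p = 0.824).

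Of 8 measured antimicrobial genes 1 was lower (Slpi) and 0 higher, with a median of -0.18, and of 17 complement, acute phase and coagulation genes 3 were lower (Saa1, Saa3 and Serpinb2) and 0 higher, against 1.2% of all genes lower, with a median of 0.01. Wfdc12, of the whey acidic protein family, measured 677, 749, 969, 1149 and 454 in OHV ears, against 1211, 1984 and 2501 as the lowest, median and highest IND values, without overlap (difference -1.32 ± 0.31, limma adjusted p = 0.0237). Slpi, an inhibitor of leukocyte elastase, averaged 2015 ± 1809 in OHV ears and 6751 ± 3399.7 in IND ears (difference -1.99, limma adjusted p = 0.0309). The acute phase genes Saa1 and Saa3 differed by -1.24 and -1.49 (limma adjusted p = 0.0194 and 0.0377), and all OHV ears lay below all IND ears for Saa1. Has3, a hyaluronan synthase, averaged 96.6 ± 89.9 in OHV ears and 384 ± 312 in IND ears (difference -1.96, limma adjusted p = 0.0479). Of 9 measured clade B serpins, which inhibit proteases within cells, 3 were lower and 0 higher, against 1.2% of all genes lower: Serpinb2, Serpinb6c and Serpinb11 differed by -0.76, -0.82 and -0.88.

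**Figure D4:**
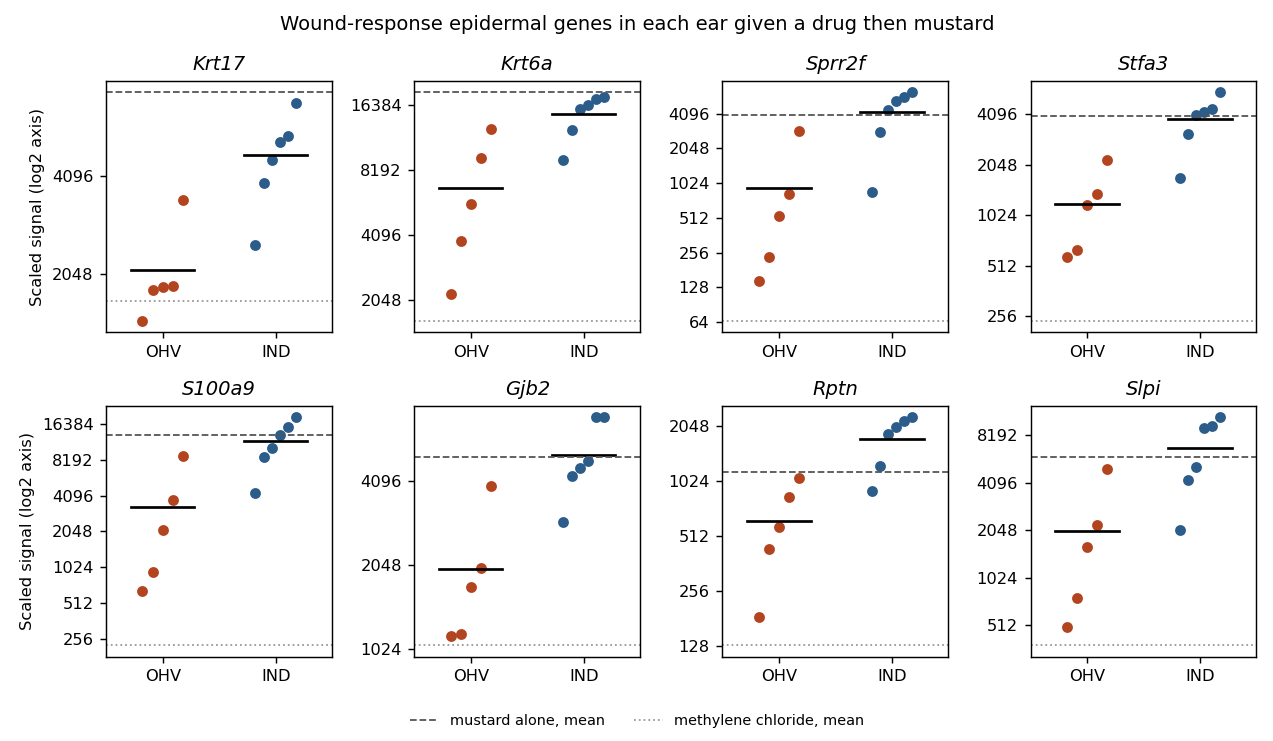
Scaled signal (log2 axis) of 8 epidermal wound-response genes in each ear given OHV then mustard, left in each panel, and IND then mustard, right. Points are ears, black bars group means, and the dashed and dotted lines the means of mustard-alone and methylene chloride ears. For each gene the OHV mean lies below the IND mean, and the highest OHV ear lies above the lowest IND ear.

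Of 27 measured immediate early genes, which cells switch on within minutes to hours of a stimulus, 3 were lower and 0 higher, where 1.2% of all genes were lower. The list's median was -0.49, and -0.27 with the animal as a block. Zfp36, which destabilises cytokine messages, measured 1054, 868, 1382, 1073 and 764 in OHV ears, against 1399, 1575 and 2362 as the lowest, median and highest IND values, without overlap (difference -0.76 ± 0.19, limma adjusted p = 0.0323). Dusp6, a phosphatase that acts on ERK, averaged 783 ± 321 in OHV ears and 1764 ± 781 in IND ears (difference -1.13, limma adjusted p = 0.0314). The growth regulator Myc averaged 769 ± 112 in OHV ears and 1089 ± 177 in IND ears (difference -0.49, limma adjusted p = 0.029), with 800.3 in mustard-alone and 782 in methylene chloride ears.

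Nfkbia, the NF-kappa B inhibitor that NF-kappa B itself induces, averaged 6614 ± 595 in OHV ears and 10046 ± 1751 in IND ears without overlap (difference -0.59, limma adjusted p = 0.0398). Zc3h12a, a ribonuclease that degrades inflammatory messages, averaged 113 ± 16.2 in OHV ears and 198 ± 46.7 in IND ears without overlap (difference -0.71, limma adjusted p = 0.0342). Ehf, an epithelial ETS factor, averaged 357 ± 55.0 in OHV ears and 599 ± 109.5 in IND ears without overlap (difference -0.71, limma adjusted p = 0.0135). On array A, 1 of 4 kept probe sets of Nfkbia was called (differences -0.66 to -0.33) and 1 of 3 of Ehf (-0.71 to -0.50). The array B probe sets of Zc3h12a and Ehf differed by -0.04 and -0.03 and were not called. Icam1, a leukocyte adhesion molecule, differed by -0.94 (limma adjusted p = 0.0253). Acute cytokines and chemokines gave 0 calls in limma over 12 measured genes, with a median of -0.43. The neutrophil chemokines Cxcl1 and Cxcl2 and the cytokine Il1b differed by -1.72, -1.75 and -0.65 (limma adjusted p = 0.0991, 0.116 and 0.365), with intervals of -2.93 to -0.51, -3.04 to -0.46 and -1.41 to 0.11.

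Of 28 measured p53 targets and DNA damage genes, 1 was higher and 2 lower (1.32% and 1.2% of all genes), with a median of -0.34. Xpc, which recognises damaged DNA for nucleotide excision repair, averaged 417 ± 97.4 in OHV ears and 249.7 ± 64.9 in IND ears (difference 0.71, limma adjusted p = 0.0194), with 255 in mustard-alone and 508 in methylene chloride ears. The p53-induced kinase Plk2 and nuclease Aen differed by -0.81 and -0.56 (limma adjusted p = 0.0385 and 0.0388). The p53 targets Cdkn1a, which stops the cell cycle, and Mdm2, which degrades p53, differed by -0.60 and -0.79 and were not called (limma adjusted p = 0.0518 and 0.0546), and Mdm2 on array B differed by 0.07 (limma adjusted p = 0.982).

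Pole, the catalytic subunit of DNA polymerase epsilon, was higher in OHV ears. It measured 89.7, 121, 118, 154 and 145 in OHV ears, against 14.0, 17.3 and 48.1 as the lowest, median and highest IND values (difference 1.92 ± 0.37, limma adjusted p = 0.0132). The groups did not overlap, and mustard-alone and methylene chloride ears averaged 64.7 and 140.1. IND values of Pole lay near the added constant of 16, and with a constant of 64 its difference was 1.14. Ube2e2, a ubiquitin-conjugating enzyme, averaged 661 ± 98.5 in OHV ears and 370.3 ± 116 in IND ears without overlap (difference 0.85 ± 0.15, limma adjusted p = 0.0117). The homeobox factor Meox2 averaged 265 ± 102 in OHV ears and 123 ± 26.3 in IND ears without overlap (difference 0.96, limma adjusted p = 0.0169).

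Of 30 measured proliferation genes 1 was higher and 0 lower, beside 1.32% of all genes called higher, with a median of 0.35 (0.22 with the animal as a block) and 26 genes above 0. Mcm6, of the replicative helicase, averaged 651 ± 123 in OHV ears and 386 ± 87.2 in IND ears without overlap (difference 0.75, limma adjusted p = 0.0398). The replication fork protein Timeless differed by 0.90 (limma adjusted p = 0.0448), and the proliferation marker Mki67 by 1.00, which was not called (limma adjusted p = 0.0553).

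Of 14 measured clock genes, 4 were higher and 1 lower, where 1.32% of all genes were higher and 1.2% lower. Their median was 0.30, and 0.10 with the animal as a block. Dbp, a transcription factor that the clock drives, measured 1191, 1337, 584, 1155 and 1423 in OHV ears, against 147, 320.0 and 704 as the lowest, median and highest IND values (difference 1.73 ± 0.37, limma adjusted p = 0.019). OHV ear 29 was the lowest of its group and lay inside the IND range. Its relative Hlf averaged 1014 ± 386 in OHV ears and 429 ± 272 in IND ears (difference 1.40, limma adjusted p = 0.0323). The clock components Per3 and Nr1d2 differed by 0.61 and 0.57, and the repressor Bhlhe40 by -0.62 (limma adjusted p = 0.0475, 0.0476 and 0.0448). In the left ears, with neither drug nor mustard, Dbp averaged 1568 ± 122 in OHV animals and 716 ± 303 in IND animals (SD, n = 5 and 4, difference 1.22, limma adjusted p = 0.52), and with the animal as a block the mustard ears' difference was 0.60 (limma adjusted p = 0.674).

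Of 17 measured glutathione S-transferases, whose family joins electrophiles to glutathione, 3 were higher and 0 lower, against 1.32% of all genes higher, with a median of 0.30. Gstt2 measured 139.8, 159, 165, 109 and 198 in OHV ears, against 19.7, 54.5 and 155 as the lowest, median and highest IND values (difference 1.20 ± 0.33, limma adjusted p = 0.04), and the groups overlapped. Gstz1 and Gstm1 differed by 0.88 and 0.52 (limma adjusted p = 0.0314 and 0.0476). Srxn1, which restores oxidised peroxiredoxin, differed by -0.77 (limma adjusted p = 0.0234, 2 of its 4 probe sets called, and the smallest difference -0.04), and the haem oxygenase Hmox1 by -0.13, with an interval of -0.45 to 0.18 (limma adjusted p = 0.714).

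Of 26 measured genes of fatty acids, sebum and ceramides, 2 were higher and 0 lower, where 1.32% of all genes were higher. They were Srebf1, a regulator of lipid synthesis, and Dgat2, which makes triglyceride, with differences of 0.60 and 0.41 (limma adjusted p = 0.0309 and 0.0474). Krt15, a keratin of basal and hair bulge cells, averaged 8767 ± 2352 in OHV ears and 5185 ± 2279 in IND ears (difference 0.83, limma adjusted p = 0.0329). It was the 1 called gene of 14 measured basal keratinocyte and anchoring genes, beside 1.32% of all genes called higher. That list had a median of 0.03, with 7 genes above 0 and 7 below. Dkk2, a Wnt antagonist, differed by 1.19 and Sostdc1, a BMP and Wnt antagonist, by 1.12 (limma adjusted p = 0.0309 and 0.0476), the second without overlap.

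Eicosanoid genes were described apart, since IND acts on prostaglandin synthesis. Of 18 measured prostaglandin genes on array A, 1 was higher and 0 lower, beside 1.32% of all genes called higher, with a median of 0.13 (-0.02 with the animal as a block). That gene was Pla2g4a, a cytosolic phospholipase that frees arachidonic acid, which measured 353, 492, 608, 503 and 409.9 in OHV ears, against 173, 284 and 318 as the lowest, median and highest IND values (difference 0.78 ± 0.20, limma adjusted p = 0.0355). The groups did not overlap, and mustard-alone and methylene chloride ears averaged 234 and 471. On array B its relative Pla2g4e measured 2090.3, 1487, 3183, 2162 and 1169 in OHV ears, against 2797, 3918 and 5497 in IND ears in the same order (difference -1.002 ± 0.21, limma adjusted p = 0.0345). The called phospholipases thus differed in opposite directions.

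Ptges, the inducible prostaglandin E synthase, differed by -0.57 on array A and -0.59 on array B and was called on neither (limma adjusted p = 0.173 and 0.394), with intervals of -1.05 to -0.09 and -1.10 to -0.08. Cysltr1, a receptor of cysteinyl leukotrienes, averaged 243 ± 55.0 in OHV ears and 116 ± 43.2 in IND ears without overlap (difference 1.02, limma adjusted p = 0.0309). Ltb4r1, a receptor of leukotriene B4, averaged 562 ± 146 in OHV ears and 951 ± 284 in IND ears (difference -0.72, limma adjusted p = 0.0476). Vanilloid channel and neuropeptide genes gave 0 calls in limma over 10 measured on array A and 7 on array B. Trpv1 measured 278, 234, 297, 322 and 202 in OHV ears, against 312, 376 and 469 as the lowest, median and highest IND values on array B, a difference of -0.49 with an interval of -0.93 to -0.06 (limma adjusted p = 0.411).

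On array B, whose brightness before scaling averaged 38.0 against 163 on array A, 3 probe sets were higher (0.0174% of the 17250 tested) and 5 lower (0.029%), with 1705 at an unadjusted p under 0.05. With scaling on probe sets common to arrays A and B, the split was 25 higher and 6 lower. A probe set of Fancb, of the Fanconi anaemia complex that repairs DNA cross-links, averaged 439 in OHV ears and 122 in IND ears (difference 2.06 ± 0.38, limma adjusted p = 0.024). The brighter kept probe set that stood for Fancb was not called. In the left ears the called probe set averaged 572 in OHV animals and 344 in IND animals. The autophagy protease Atg4a and the adhesion protein Flrt1 differed by 0.72 and 0.73 (limma adjusted p = 0.024 and 0.0306), while the other kept probe set of Atg4a differed by 0.01 and that of Flrt1 by 0.35, neither called. Duox1, a hydrogen peroxide-making oxidase of epithelia, measured 742, 629.5, 1080.0, 559 and 665 in OHV ears, against 965, 1409 and 1909.7 as the lowest, median and highest IND values (difference -0.93 ± 0.18, limma adjusted p = 0.0306).

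The other probe sets lower on array B were Pla2g4e, the membrane fusion gene Stx11 (difference -0.71, limma adjusted p = 0.0306) and 2 with no gene name. The brighter kept probe set that stood for Stx11 was not called. The envelope gene Lce3b and the skin proteases Klk9 and Prss27 differed by -1.90, -1.08 and -1.30 and were not called (limma adjusted p = 0.0655 each). The count of 8 fell to 0 without OHV ears 27, 28, 30 or 33 or IND ears 16, 19 or 22, was 6 without IND ear 17, and was 63 without OHV ear 29, 113 without IND ear 18 and 51 without IND ear 21.

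Markers of the other cells of the biopsy gave 0 calls in limma on array A. This held for 18 macrophage, 7 mast cell, 5 T cell, 14 endothelial, 17 fibroblast and collagen, 11 adipocyte, 31 skeletal muscle and 26 hair follicle genes. Medians were 0.07 for macrophage, 0.20 for fibroblast and 0.03 for muscle genes. The hair follicle median was -0.51, between -0.75 and -0.16 with 1 ear left out and 0.02 with the animal as a block. By ear, relative to methylene chloride ears, it ran -0.93 to 0.65 in OHV ears and -1.07 to 1.79 in IND ears.

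The left ears show how far the animals differed with methylene chloride alone. On array A 3 of the 15400 probe sets were called (0.0195%), and on array B 0.0% were, with 683 there at an unadjusted p under 0.05 in limma. Txnip, which binds thioredoxin, ran 1544 to 2397 in left ears of OHV animals and 4908 to 7607 in left ears of IND animals (n = 5 and 4, difference -1.51, limma adjusted p = 0.0204). The stress gene Ddit4 differed by -1.13 and Hells, a chromatin remodeller of dividing cells, by 0.94 (limma adjusted p = 0.0117 and 0.0317). The count was 0 without left ear 18, 19 or 30 and 1 without left ear 28. With quantile normalization 2 were lower and 0 higher.

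Without mustard, the same drugs in other animals gave 10 called probe sets of 15400 (0.0649%), 3 higher and 7 lower with OHV. Lower were Txnip (2 probe sets), Errfi1, Mt1, Tsc22d3, Gadd45g and Btg1, and higher were Nkd2, Ly6g6d and a probe set of Sostdc1. Txnip ran 1509 to 3988 with OHV and 6965 to 8684 with IND (n = 5 and 4, difference -1.48, limma adjusted p = 0.0301). Tsc22d3, a leucine zipper gene that glucocorticoids induce, ran 1224 to 1759 with OHV and 2217 to 3452 with IND (difference -0.91, limma adjusted p = 0.0301). With mustard, the same probe set of Txnip averaged 1476 in OHV ears and 1626 in IND ears, and the other one 1231 in OHV ears and 1037 in IND ears. The count was 0 without IND ear 511 or 514 or OHV ear 516 or 520, 2 without IND ear 512, 6 without OHV ear 517, 4 without OHV ear 518 and 20 without IND ear 515.

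Mt1, a metallothionein, which binds zinc and copper, averaged 3346 ± 479 in OHV ears and 6356 ± 1811 in IND ears with mustard (SD, n = 5 and 6, difference -0.88, limma adjusted p = 0.0348). Without mustard it averaged 4174 ± 471 with OHV and 8699 ± 2956 with IND (SD, n = 5 and 4, difference -0.999, limma adjusted p = 0.0301). In the left ears it averaged 3895 ± 358 in OHV animals and 6661 ± 1468 in IND animals (difference -0.75, limma adjusted p = 0.427). Its OHV mean lay below its IND mean in all 3 settings. Mt2 averaged 6887 ± 978 in OHV ears and 10779 ± 1590.1 in IND ears with mustard, without overlap (difference -0.64, limma adjusted p = 0.0309). Mt1 and Mt2 were the 2 called genes of 10 measured metallothionein and zinc genes (1.2% of all genes were lower), whose median was -0.12. Mt4 was the 1 gene of that list above 0, at 1.27, and was not called (limma adjusted p = 0.0772). The median of 20 glucocorticoid targets was -0.48 with mustard, -0.74 without mustard and -0.45 in the left ears, and with mustard 3 were lower (Mt1, Mt2 and Nfkbia) and 0 higher, against 1.2% of all genes lower. With the animal as a block the median with mustard was -0.01.

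Whether the difference between the drugs changed with mustard was tested as a difference of differences, and 11 of 15400 probe sets were called (0.0714%). Ears with mustard also had methylene chloride and were of other animals, so mustard, vehicle and animals cannot be told apart here. The OHV minus IND difference was more negative with mustard for Gbp2, Aen, Trmt2a, Atp6v1b2, Pinlyp, Pafah1b2, Mphosph10, Hprt and Brix1, and more positive for Ccni and Ctdspl. For Gbp2 the drugs differed by -1.73 with mustard and by -0.23 without it, and the difference of these was -1.50 (limma adjusted p = 0.0436). For Aen it was -0.97 (limma adjusted p = 0.0436). For the wound genes Sprr2f, Krt17 and Gjb2 it was -2.88, -1.44 and -1.78 and not called (limma adjusted p = 0.092, 0.0736 and 0.0736). The count was 1 to 7 without OHV ear 28, 33, 517, 519 or 520 or IND ear 16, 22, 512 or 514, and 19 to 105 without OHV ear 29, 516 or 518 or IND ear 18, 21, 511 or 515.

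**Figure D5:**
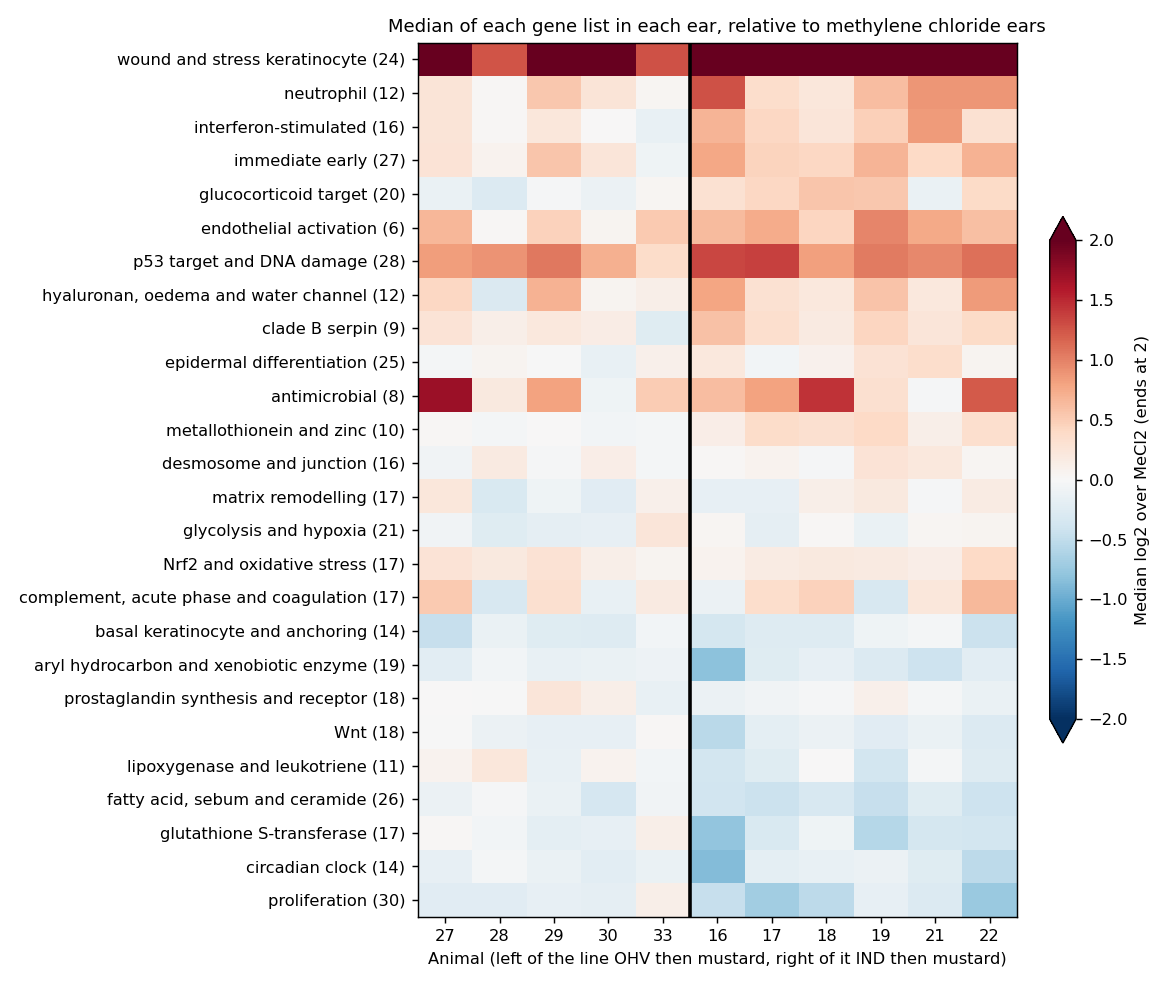
Median log2 value of each gene list relative to methylene chloride ears, in each of the 11 ears of array A, with OHV then mustard left of the line and IND then mustard right of it. Shown are the 26 lists with at least 1 called gene. The wound keratinocyte list is above 0 in every ear, at 1.26 to 3.11 in OHV ears and 2.48 to 4.02 in IND ears.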

How the data were processed

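RNA of single ears was hybridised to 2 Affymetrix arrays. The authors deposited one intensity per probe set and array, made with MAS5 per the submitters' processing notes, whose version is not given in the sources used here. Each array was rescaled to a trimmed mean of 500 (2% trimmed at each end), since brightness varied up to 4.01-fold on array A and 2.77-fold on array B, and the deposited values were turned into log2(scaled signal + 16). Probe sets were kept where scaled signal averaged 100 or more over the 43 ears of the mustard series, 15400 of 22690 on array A and 17250 of 22575 on array B. On array A 20380 probe sets had 1 gene symbol, 691 several and 1555 none, and on array B 14661, 245 and 7605. Where a gene had several kept probe sets, the brightest on average stood for it.

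One limma model per array held all groups of the mustard series (R 4.3.3, limma 3.58.1, lmFit and eBayes with trend), with Benjamini-Hochberg adjustment, and was tested on simulated data. Ears without mustard were fitted apart on array A, and all array A ears together for the difference of differences, with naive ears of 1 animal averaged. Groups came from the ear labels, and replicates are separately numbered animals. No pair of ears within the OHV group or within the IND group had identical values on an array, and other pairs were not checked. Left and right ears of an animal deviated together only weakly (mean correlation 0.173 over 17 pairs on array A, range -0.10 to 0.45, and 0.0680 on array B), and no animal had both drugs, so that the animal was also fitted as a block through its left ear. The number of arrays limits the precision.

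Named genes are the 12 largest rises and falls among called genes without overlap (6 on array B), up to 3 called genes per list, the 8 smallest p-values per direction where few pass, and a fixed panel, and those described here are part of them. Sprr1a, Per3, Nr1d2, Fancb, Stx11, the keratins and actin of the tissue check and the genes called in the other comparisons lie outside that rule and were chosen after their values were seen. The members and lists were chosen with earlier results of these data known. Other scalings, constants, filters, blocks and covariates and the leaving out of each ear were tried.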

Additional observations from a re-analysis of the deposited data

Results flagged for a closer look

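Of 174 groups of values checked for an ear far from the rest of its group, 11 had one, and chance gives about 1 in 20. In OHV ears, Krt17 was 3451 in ear 29 against 1473 to 1881 in the other ears, and Dbp was 583.5 in ear 29 against 1155 to 1423. Saa1 was 41.48 in OHV ear 28, against 81.9 to 101.5 in the others. In OHV ear 33 Ptges was 547.2 (951.3 to 1111 in the others) and Mki67 was 550.9 (227.3 to 283.4 in the others). The log2 Gapdh ratio was -0.3245 in OHV ear 30, where the others lay between -0.07573 and 0.005066.

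In IND ears, Wfdc12 was 1211 and Saa1 110.2 in ear 18, against 1931 to 2501 and 196.8 to 269.2 in the others. Timeless was 55.28 in IND ear 19, with 98.81 to 118.3 in the others. Irgm1 was 516 in IND ear 21, with 275.6 to 334.2 in the others, and Pole was 48.1 in IND ear 22, with 14.01 to 22.83 in the others.

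The difference between the drugs differed with and without mustard for Gbp2, by -1.505, and for Aen, by -0.9734, each in limma's test of the difference of differences (adjusted p = 0.0436).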

How the results depend on the processing

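The signature score stayed lower in OHV ears under every scaling, signature and leave-out tried, with exact permutation p between 0.0095 and 0.0476. The signature without mustard ears 5 and 37 was added after seeing the data. The array A count of 339 called probe sets was 1 without rescaling (median log2 difference over all probe sets 0.20, against 0.03 in the reported fit), 2 with only the 11 ears compared, which have fewer residual degrees of freedom, 160 with the Gapdh ratio, 519 with the muscle mean and 184 with array brightness as a covariate. It was 1 to 997 with 1 ear left out. The array B count of 8 was 0 without rescaling, 0 with only the 11 ears, 5 without the trend, 31 when scaled on probe sets shared by both arrays, 37 at a minimum of 300, and 29 without mustard ears 5 and 37, an alternative chosen after seeing the data. It was 0 to 113 with 1 ear left out. The left ear count on array A of 3 was 0 without rescaling and 0 to 4 with 1 ear left out. The count of 10 without mustard was 0 without rescaling, 0 without the trend and 0 to 20 with 1 ear left out. The count of 11 for the difference of differences was 0 without rescaling, 18 with quantile normalization, 7 without a filter and 1 to 105 with 1 ear left out. The cause of these moves was not tested beyond what each construction fixes.

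No animal had both drugs, so pairing is between the right and left ear of an animal. With the animal as a random replicate block, array A gave 349 calls and array B gave 7. With it as a fixed replicate block, over the 17 animals with both ears (9 of them given these drugs), 0 were called on both arrays (1422 and 1005 at an unadjusted p under 0.05 in limma). Without IND ears 16 and 21, and with no block, 21 were called on array A and 1 on array B. The score as right minus left ear was -0.60 on array A and -0.41 on array B (exact permutation p = 0.0317 for both). The last 2 of these settings were added after seeing the data. Of the 66 called genes named by rule on array A, 66 kept their sign in each leave-out and each other setting. Since they were picked by calls in the same ears, that sign was largely fixed by the choice. Signal was low for Pole in IND ears and, before scaling, on array B as a whole. How far this bears on the array B count was not tested.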
